A study of Homo sapiens with 18 samples.

Results

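The interval chr5:85000000-125000000 on the long arm of chromosome 5 (hg19) held 921 windows of open chromatin, out of 5712 windows on chromosome 5 and 89428 in the genome-wide table. The members were all windows whose start lay between these bounds. The interval had been chosen by the FPKM values of PEA1 and PEA2, since its windows were higher in PEA2, so values of PEA1 and PEA2 are given as a description and carry no test. Accessibility had been measured by ATAC-seq in 6 established human ovarian cancer lines with 3 libraries each, and was expressed as FPKM, the reads of a window scaled for its length and for the reads of the library. The lines formed 3 pairs, each with a line sensitive to platinum named first and its resistant partner, namely A2780 and CP70, PEA1 and PEA2, and PEO1 and PEO4. CP70 is a derivative of A2780 that acquired platinum resistance in culture, whereas the PEA and the PEO lines were each grown from 1 patient with high-grade serous ovarian cancer, before and after clinical resistance. All lines were cultured in the same medium, and each stands for 1 patient or 1 parental line. Nothing stated that the 3 libraries of a line came from separate cultures, so p-values measure the spread between these libraries, which may be technical.

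ATAC-seq uses the transposase Tn5 to cut and tag DNA that is not held tightly in nucleosomes, so reads gather at promoters and at distal enhancers. The number of reads in a window also follows how many copies of that DNA a cell carries. A change in copies scales neighbouring windows of every class alike, while a change in a regulatory element alters single windows or small clusters, and gains and losses of chromosome arms are common in high-grade serous ovarian cancer. The interval carries the Wnt antagonist APC, the RAS regulator RASA1, the aminopeptidases that trim peptides for antigen presentation, and many housekeeping genes. DNA copy number was not measured in these libraries, so copies per cell and accessibility per copy cannot be told apart, nor can fewer cells with a sequence and less signal per cell.

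The members comprised 128 promoter windows, with the centre from 1 kb upstream to 100 bp downstream of a protein-coding start, 631 distal windows, more than 5 kb from every such start, and 162 windows in between. They were 2.07% of the windows that tile the interval, against 3.06% for the rest of chromosome 5, which served as the flanking reference. Distal members lay a median of 116 kb from the nearest protein-coding start against 51.7 kb in the flank, and members had a median GC content of 42.5% against 48.4%. Windows slightly over 1 kb long began every 900 bases, so neighbours overlap and are not independent. The libraries held 8963079 to 60435027 reads, of which 8.38% to 40.8% fell in the table, the least in A2780 and the most in PEO1. A distal member held a median of 5 to 9 reads in the libraries of PEA1 and CP70 and of 17 to 48 in those of the other lines, so distal values were least precise in PEA1 and CP70. Of 8 epithelial and Muellerian markers, MUC16 had no window and 6 (EPCAM, KRT8, KRT18, CDH1, PAX8 and WT1) had a higher promoter in both PEO lines than in the other 4, whereas EMX2 did not. EPCAM, for example, averaged 0.740 to 2.09 FPKM in the A2780 and PEA lines and 10.5 to 11.3 FPKM in the PEO lines. PTPRC and CD3E of leukocytes, PECAM1 and CDH5 of endothelium and DCN of fibroblasts had no window, while CD14 reached 5.67 FPKM in PEO1 and COL1A2 reached 2.17 FPKM in PEO4.

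The central 300 bases of 3 distal members are shown because these windows carry the largest falls described further on. They were read from the plus strand of GRCh37 (hg19) and lie outside every protein-coding gene body. Capitals mark the AP-1 motif TGANTCA.
Distal member with the largest fall from PEA1 to PEA2, chr5:123211250-123211549: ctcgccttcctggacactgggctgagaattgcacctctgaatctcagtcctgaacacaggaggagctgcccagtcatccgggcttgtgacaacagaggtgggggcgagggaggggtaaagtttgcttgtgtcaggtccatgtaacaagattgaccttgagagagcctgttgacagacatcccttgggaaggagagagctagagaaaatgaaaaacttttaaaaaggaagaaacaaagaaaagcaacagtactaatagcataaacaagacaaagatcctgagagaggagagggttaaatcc
Distal member with the largest fall from A2780 to CP70, chr5:123121250-123121549: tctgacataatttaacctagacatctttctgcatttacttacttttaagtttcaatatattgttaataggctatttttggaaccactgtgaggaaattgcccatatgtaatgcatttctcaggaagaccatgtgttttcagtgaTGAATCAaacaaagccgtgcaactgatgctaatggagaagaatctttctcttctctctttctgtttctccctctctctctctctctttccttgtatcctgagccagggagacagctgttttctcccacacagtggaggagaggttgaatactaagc
Distal member with the largest fall from PEO1 to PEO4, chr5:106209350-106209649: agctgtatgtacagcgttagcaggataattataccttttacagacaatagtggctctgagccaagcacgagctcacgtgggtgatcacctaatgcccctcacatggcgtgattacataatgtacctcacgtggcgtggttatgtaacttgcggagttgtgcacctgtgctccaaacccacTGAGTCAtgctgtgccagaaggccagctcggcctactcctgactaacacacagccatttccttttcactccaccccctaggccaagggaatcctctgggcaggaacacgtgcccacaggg
The search covered both strands and also the TEAD motif CATTCC, the palindromic NFI motif, the GATA motif AGATAA, the ETS motif CCGGAAGT and the core of the CTCF motif, none of which occurred in these stretches. AP-1 letters read TGAATCA in the stretch from the A2780 pair and TGAGTCA in that from the PEO pair. In the central 300 bases of every window, AP-1 letters occurred in 22.8% of distal members, 19.4% of flanking distal windows, 18.9% of all distal windows and 13.9% of all windows of the table. They occurred in 7.03% of promoter members and 5.56% of all promoter windows. GATA letters occurred in 20.9% of distal members and 14.96% of all distal windows, TEAD letters in 21.7% and 19.3%, and the CTCF core in 4.28% and 6.06%. The members were also poorer in GC, and the part of base composition in these shares was not tested.

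The level of the interval set PEA1 apart from the other 5 lines, whereas PEA2 lay among them. Each window was compared with the mean of A2780, CP70, PEO1 and PEO4 (leaving out the line itself) on the scale log2(FPKM + 0.1), and the median over members was reduced by the median over flanking chromosome 5. For promoters this offset was -1.58, -1.52 and -1.66 in the 3 PEA1 libraries and -0.16, -0.22 and -0.10 in those of PEA2. It was -0.25, -0.10 and -0.10 in A2780 and -0.04, -0.12 and -0.23 in CP70. The libraries of A2780, CP70 and PEA2 overlapped, and those of PEA1 lay below all others. PEO1 stood highest at 0.27, 0.32 and 0.39, and PEO4 lay close to 0 at -0.08, -0.05 and -0.07. Relative to flanking chromosome 5, the contrast that named the interval as raised in PEA2 was thus a low level in PEA1 beside the other lines.

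**Figure D1:**
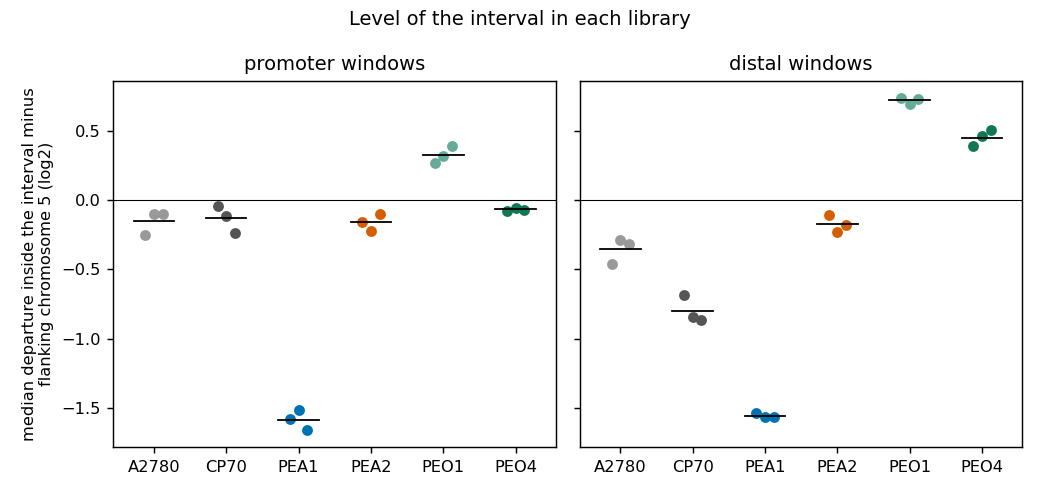
Level of the interval in each library, for promoter windows (left) and distal windows (right), as the median departure from the mean of A2780, CP70, PEO1 and PEO4 minus that of flanking chromosome 5 (log2). Points are libraries and lines the mean of 3. PEA1 averages -1.59 for promoters and -1.56 for distal windows and lies below every library of the other lines.

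Distal members gave the same lowest line and a wider spread above it. Their offset was -1.56 ± 0.01 (SD, n = 3) in PEA1, -0.80 ± 0.10 in CP70, -0.36 ± 0.09 in A2780, -0.17 ± 0.06 in PEA2, 0.45 ± 0.06 in PEO4 and 0.72 ± 0.02 in PEO1. No libraries of different lines overlapped. In PEA1 and PEA2 the promoter offsets of -1.59 ± 0.07 and -0.16 ± 0.06 differed from the distal offset by less than the spread of libraries. A2780, CP70, PEO1 and PEO4 had promoter offsets of -0.15 ± 0.09, -0.13 ± 0.10, 0.33 ± 0.06 and -0.07 ± 0.01, each apart from their distal offset by more than that spread. Against the other autosomes, the promoter offset was -1.21 ± 0.07 in PEA1, the lowest of the 6 lines, and 0.51 ± 0.12 in PEA2, the highest, with PEO1 next at 0.41 ± 0.07. PEA2 promoters on flanking chromosome 5 without 50 to 85 Mb also stood above those on the other autosomes, with median departures of 0.20 and -0.61, so the higher level of PEA2 against the genome was shared by the rest of chromosome 5.

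In FPKM, the median promoter member had 1.67, 1.93 and 1.199 in the libraries of PEA1 and 5.33, 4.02 and 4.84 in those of PEA2. These did not overlap, while on flanking promoters PEA1 had 3.36, 3.49 and 2.59 FPKM and PEA2 had 4.01, 3.30 and 3.73 FPKM, which did. The median distal member had 0.269 ± 0.026 FPKM in PEA1 and 2.11 ± 0.26 in PEA2. A2780 and CP70 were as low on distal members, at 0.365 ± 0.029 and 0.324 ± 0.048 FPKM, but also on flanking distal windows, at 0.437 and 0.465 FPKM against 0.972 in PEA1. The interval held 7.50% ± 0.33 of the chromosome 5 reads of the table in PEA1, 15.9% ± 0.29 in PEA2, 16.2% ± 1.5 in CP70, 17.5% ± 0.98 in A2780, 19.7% ± 0.38 in PEO4 and 22.1% ± 0.25 in PEO1. PEA1 was the lowest of the 6 lines in 529 members (57.4%), against 9.02% of flanking windows and 1.99% once 50 to 85 Mb was left out. Among promoter members it was the lowest in 96 of 128, against 13.8% of flanking promoters and 1.77% without 50 to 85 Mb. PEA2 was the highest line in 20.6% of members and 36.5% of flanking windows, and PEO1 was the highest in 66.9% of members and 41.2% of flanking windows.

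The rise from PEA1 to PEA2 covered nearly every promoter of the interval and was narrow. Among 123 promoter members with a mean above 1 FPKM over the pair, the median log2FC was 1.52 (2.87-fold) with an interquartile range of 0.59, and 119 lay above 0. Flanking promoters without 50 to 85 Mb had a median of 0.02 with an interquartile range of 0.68. The spread of the members was thus no wider than that of the flank around a higher median, although the 13 promoters past 120 Mb had a median of only 0.15. Distal members had a median of 2.55 (5.84-fold) with an interquartile range of 1.30, against 0.96 and 1.44 in that flank. Distal windows thus rose in both and rose further in the interval. Entry to the table sets part of these rises. Through PEA2 alone, 18.7% of distal members and 29.8% of distal windows in that flank were in the table. Through PEA1 alone the shares were 0.63% and 4.84%. The scale log2(FPKM + 0.1) understates the change of low windows, and distal members were the lower class. Taken against all flanking windows of the same class, the offset of the pair was 1.33 for promoters, 1.48 for distal members and 1.38 for all members.

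**Figure D2:**
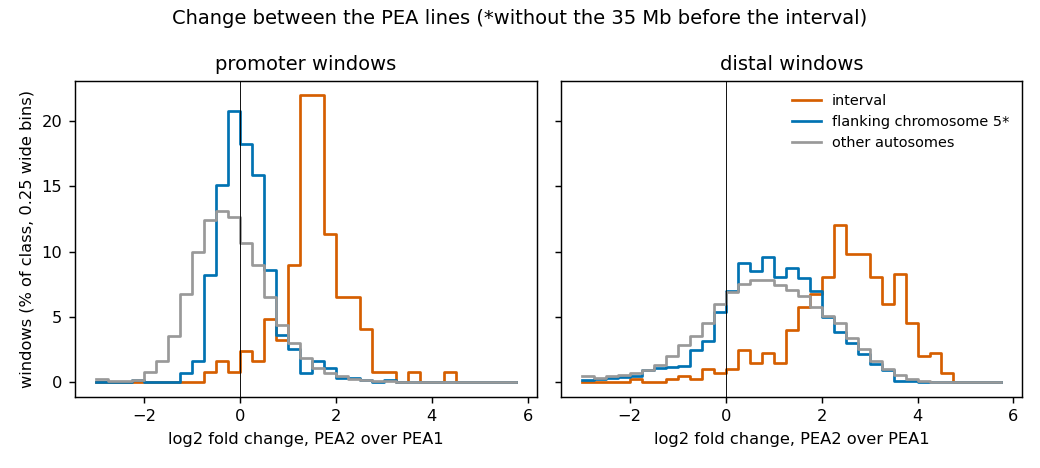
Share of promoter windows (left) and distal windows (right) by log2FC of PEA2 over PEA1, in the interval, on flanking chromosome 5 without 50 to 85 Mb and on the other autosomes. The promoters of the interval centre on 1.52 and those of the flank on 0.02.

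The low stretch of PEA1 began before the interval and ended inside it. In bins of 2.5 Mb, the median departure of PEA1 from the other lines lay between -1.94 and -0.97 in all of the 27 successive bins that end at 120 Mb. In the 41 remaining bins of chromosome 5 with at least 10 windows it lay between -0.65 and 1.07, which does not overlap. PEA2 ran from -0.37 to 1.16 over the 27 bins and from -0.35 to 2.10 elsewhere. These ranges overlapped, but PEA2 also had a lower median over the 27 bins, at 0.40 against 0.94. In bins of 0.5 Mb, PEA1 stood at 0.39 over 8 windows in the bin that ends at 53 Mb and at -1.31 over 14 windows from 53.5 to 54 Mb. At the other end it stood at -1.41 over 9 windows from 119.5 to 120 Mb and at 0.22 over 14 windows from 121 to 121.5 Mb. From 85 to 120 Mb, 110 of 110 promoters and 336 of 338 distal windows had a log2FC of PEA2 over PEA1 above 0, with medians of 1.55 and 2.68. From 120 Mb to the end of the interval the medians were 0.15 over 13 promoters and 0.76 over 60 distal windows, close to the flank. A dip remained there, with PEA1 at -0.75 over 7 windows before 123 Mb and at -1.36 over 8 windows in the bin that follows. The bounds of the low stretch were set after the values were seen.

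**Figure D3:**
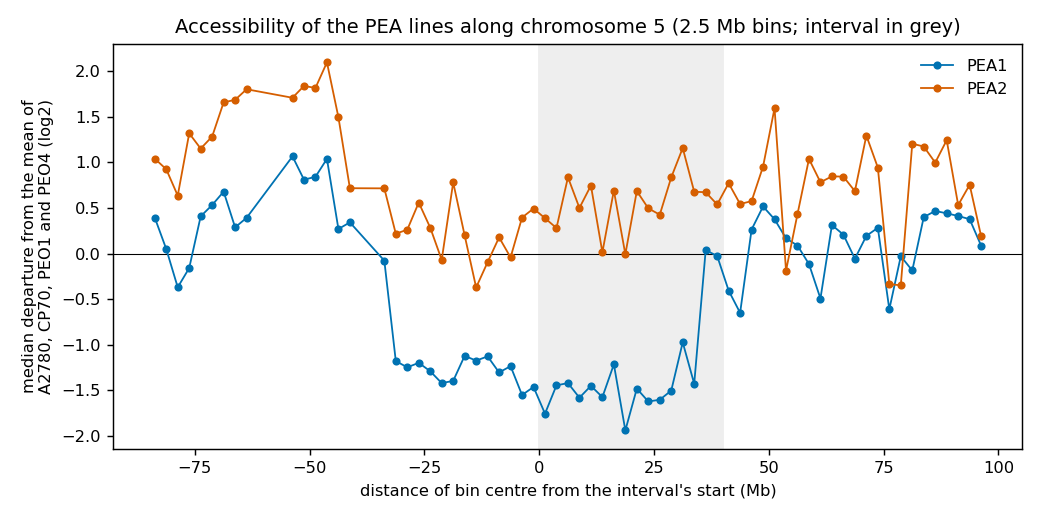
Median departure of PEA1 and PEA2 from the mean of A2780, CP70, PEO1 and PEO4 (log2) in 2.5 Mb bins along chromosome 5, against the distance from the start of the interval (grey). PEA1 steps down well before the grey area, stays between -1.94 and -0.97, and returns to about 0 in its last bins. Over the 27 bins that end at 120 Mb, PEA2 has a median of 0.40 against 0.94 elsewhere, with ranges that overlap.

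The windows beside the bounds of the interval were all distal. The last window before it, chr5:84933900-84934900, averaged 0.0575 FPKM in PEA1 and 0.128 in PEA2, and the first member, chr5:85756500-85757500, averaged 0.159 and 0.628 FPKM. At the other end the last member, chr5:124894800-124895800, averaged 0.354 and 2.46 FPKM, and the first window beyond, chr5:125004600-125005600, averaged 0.255 and 2.30 FPKM. The next one beyond, chr5:125337600-125338600, went the other way, with 2.22 FPKM in PEA1 and 0.198 in PEA2.

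The departure of PEA1 was present in each class of GC content and of signal examined. Over 5 GC classes it lay between -1.74 and -1.31 for promoter members and between 0.05 and 0.33 for flanking promoters without 50 to 85 Mb, with 9 members in the class below 40% GC. For distal members it lay between -1.83 and -1.07 against -0.31 to 0.45 in that flank. Over 5 classes of mean signal in A2780, CP70, PEO1 and PEO4, it went from -0.91 in members below 1 FPKM to -1.96 in those above 8 FPKM, and the flank went from 0.84 to -0.23 over the same classes. Among the 777 members that entered the table without the PEA libraries, the offset against the flank was -1.53 in PEA1 and -0.09 in PEA2 for promoters, and -1.22 and -0.13 for distal windows.

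Within this shared shift, some distal members changed much further. Rises among the largest were in chr5:99980100-99981100, between genes, with 11 reads in PEA1 and 325 in PEA2, and in chr5:114714900-114715900, 83.0 kb from CCDC112, with 10 and 273 reads. At the latter PEO1 reached 4.87 FPKM, as high as PEA2 at 4.67.

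Promoters with the largest rise were those of TMEM232, PRR16 and TSLP. TMEM232, a transmembrane protein gene, had 0.0961, 0.0935 and 0.192 FPKM in PEA1 and 5.83, 4.05 and 4.44 FPKM in PEA2. PEO1 was higher still at 11.1 FPKM. The 10 reads of PEA1 and 276 of PEA2 gave a ratio of 40.03 after scaling for depth. It describes the largest promoter rise in the pair that chose the interval and carries no test. TSLP, an epithelial cytokine, had 0.128, 0.218 and 0.288 FPKM in PEA1 and 2.53, 2.20 and 2.71 FPKM in PEA2, and averaged 0.292 to 0.801 FPKM in the other 4 lines. Only in PEA2 did its promoter exceed 2 FPKM, the minimum of the table. The TSLP window was thus in the table through PEA2 alone, which fixes part of its difference.

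Few members went the other way. The largest fall, in the first sequence shown, was in chr5:123210900-123211900, 330 kb from CSNK1G3 and past 120 Mb, with 2.53, 2.34 and 1.49 FPKM in PEA1 and 0.495, 0.405 and 0.444 FPKM in PEA2 (185 and 26 reads). Before 120 Mb, chr5:112394700-112395700 inside MCC, a gene that restrains Wnt signalling, had 1.99, 2.40 and 1.39 FPKM in PEA1 and 0.934, 0.867 and 0.577 FPKM in PEA2. Both kept the lines apart in the direction opposite to most neighbours. With the offset of 1.38 taken from every member, 97 of 664 members lay past the thresholds used for the other pairs (|log2FC| above 2 and limma adjusted p below 0.001), against 12.3% of all windows. As the interval was chosen on this pair, nothing is read from that count.

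Most genes of the interval had a higher promoter in PEA2. Of 99 protein-coding genes with a start there, 88 had a promoter window (83 distinct windows), and in 79 every PEA2 library exceeded every PEA1 library, against 44.1% of all windows tested in the pair. All 9 genes whose libraries overlapped, SRFBP1, LOX, ZNF474, SNCAIP, SNX2, SNX24, PRDM6, CSNK1G3 and ZNF608, had their start past 120 Mb. The median fold over the 88 genes was 2.88. The listed groups are part of these genes, so their counts stand beside 79 of 88 and are not results about a group. The list of growth-restraining and Wnt genes also held TNFAIP8, an apoptosis regulator. All 5 of its genes were higher in PEA2, with a median fold of 2.56. APC, which marks beta-catenin for destruction, had 2.21, 3.05 and 1.39 FPKM in PEA1 and 6.49, 4.45 and 6.12 FPKM in PEA2. RASA1 had the smallest fold of that list at 2.13 and EPB41L4A the largest at 5.65.

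Genes of repair, cell cycle and chromatin were higher in 7 of 8 cases with a median fold of 2.76. This was near the 79 of 88 and 2.88 of all genes of the interval. CCNH, the cyclin of the CDK-activating kinase, went from 1.91 ± 0.40 to 4.86 ± 0.55 FPKM, and CHD1, a chromatin remodeller, from 2.91 ± 0.58 to 7.86 ± 1.23. SLF1, which helps to recruit repair factors to DNA lesions, had a fold of 4.52. For antigen trimming and proteases, 5 of 6 genes had a window and all 5 were higher, ERAP1, which trims peptides for class I molecules, by 2.62-fold and CAST, the calpain inhibitor, by 2.49-fold. Among guidance, matrix and signalling genes 7 of 8 were higher with a median fold of 3.89, led after TSLP by KCNN2, a calcium-activated potassium channel gene, which went from 0.641, 0.623 and 0.384 FPKM to 5.44, 4.33 and 4.93 FPKM.

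Among housekeeping genes, 15 of 16 were higher with a median fold of 2.92, near the 2.88 of all genes of the interval. COX7C, a subunit of cytochrome c oxidase, had 1.06, 1.09 and 0.719 FPKM in PEA1 and 5.88, 3.99 and 4.88 FPKM in PEA2. The other 4 lines averaged 3.27 to 13.6 FPKM on it, so PEA1 was again the low line. The transcription list had 3 of 6 higher and a median fold of 1.35, and MEF2C, a muscle and neural factor, had the smallest fold before 120 Mb in that list at 1.47. Past 120 Mb, LOX, which cross-links collagen, had 3.43 ± 0.62 FPKM in PEA1 and 3.54 ± 0.32 in PEA2, and SNX2, a sorting nexin, had 4.58 ± 0.44 and 5.11 ± 0.66. ZNF608 had a ratio of 0.618. The lists mix genes from both sides of 120 Mb.

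**Figure D4:**
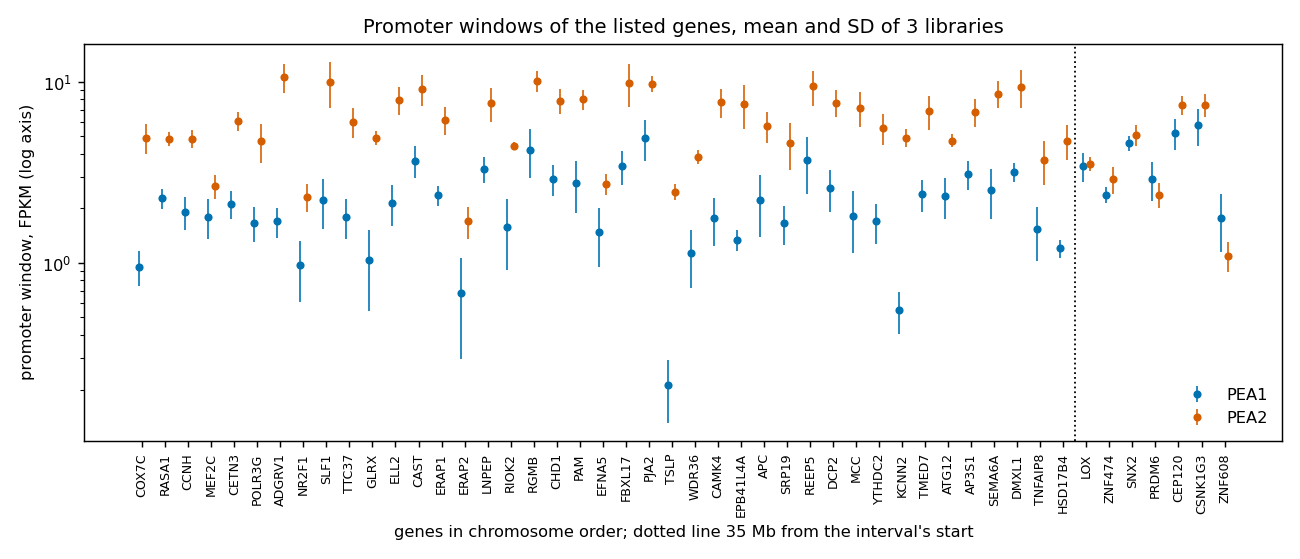
Promoter window of each listed gene in PEA1 and PEA2, mean and SD of 3 libraries in FPKM on a log axis, in chromosome order, with a dotted line at 120 Mb. Left of the line PEA2 is higher at every gene; right of it the ratio of PEA2 to PEA1 runs from 0.618 to 1.44.

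In the PEO pair, which played no part in choosing the interval, most gene promoters were lower in PEO4 than in PEO1. At a limma adjusted p below 0.05, 68 of 87 were lower (78.2%), against 32.4% of all promoters, and 1 was higher, against 24.5%, namely ELL2, an elongation factor of RNA polymerase, with a log2FC of 0.23. The median log2FC was -0.43, where the median of all windows in the pair was -0.30. Promoter windows alone had a median of -0.24 on flanking chromosome 5 and -0.03 on the other autosomes. With libraries centred on their median, 37 were lower (42.5%, against 16.8% of all promoters) and 8 higher (against 47.7%), and after GC correction 53 were lower (60.9%, against 25.1%) and 4 higher (against 30.3%). Lower promoters exceeded their background under each scaling, while their number followed the scaling. Of the listed genes, 7 of 8 for repair, cell cycle and chromatin were lower, and 4 of 5 in the growth-restraining and Wnt list that held TNFAIP8. So were 4 of 5 for antigen trimming, 4 of 6 for transcription, 6 of 7 for guidance, matrix and signalling and 10 of 16 housekeeping genes. TNFAIP8, an apoptosis regulator, had a log2FC of -1.49 (SE 0.14, adjusted p 1.4e-11), GLRX, a glutaredoxin, of -1.20 (SE 0.15) and CAMK4, a calcium-dependent kinase, of -0.97 (SE 0.12). APC averaged 6.97 FPKM in PEO1 and 6.63 in PEO4 (log2FC -0.07, SE 0.15, adjusted p 0.69).

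Single windows also changed strongly in the PEO pair. At |log2FC| above 2 and adjusted p below 0.001, 20 of 813 members were higher and 64 lower, against 2.72% and 5.78% of all windows. The split depended on the scaling, with 26 higher and 33 lower under median centring, against 4.19% and 3.25% of all windows, and 35 higher and 17 lower after GC correction, against 4.26% and 2.2%. The table holds windows above 2 FPKM in at least 2 libraries, so a window that entered through 1 line alone had to be high there. Of the 20 higher calls 18, and of the 64 lower calls 32, had entered only through the line in which they were higher. Among members that would be in the table without that line, 2 higher calls (0.264%, against 0.626% of all such windows) and 32 lower calls (4.99%, against 2.45%) were left. Among the calls, 19 of the higher and 59 of the lower windows were distal and 2 of the lower were promoters, near TNFAIP8 and at PRR16. The largest fall, in the third sequence shown, was in chr5:106209000-106210000, 797 kb from EFNA5. It had 6.98, 5.85 and 6.24 FPKM in PEO1 and 0.523, 0.336 and 0.149 FPKM in PEO4 (log2FC -3.98, SE 0.27, adjusted p 3.6e-15, 192 and 19 reads). PEA1 had 0.192, 0.218 and 0.0959 FPKM there and PEA2 6.65, 4.97 and 5.37 FPKM, so the window was open in the sensitive line of one pair and in the resistant line of the other.

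Inside EPB41L4A, which encodes a band 4.1 protein, chr5:111723300-111724300 had 3.24, 3.05 and 3.46 FPKM in PEO1 and 0.233, 0.192 and 0.199 FPKM in PEO4. In the opposite direction, chr5:119310300-119311300, 346 kb from FAM170A, had 0.202, 0.436 and 0.446 FPKM in PEO1 and 5.06, 4.56 and 5.08 FPKM in PEO4 (11 and 284 reads). No library of another line exceeded 0.446 FPKM there. The next largest rise, in chr5:118027800-118028800 and 296 kb from DTWD2, went from 0.405, 0 and 0.669 FPKM to 3.55, 3.41 and 3.44 FPKM. These 3 windows were in the table only through the line in which they were high, so their difference is given with no test. Of the 84 calls, 61 were called in all 6 fits that left out 1 library, the largest fall among them.

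In the A2780 pair the calls gathered near the end of the interval. Of 254 members tested, 1 was higher in CP70 and 11 lower, against 0.428% and 0.369% of all windows, and 10 of the lower calls lay beyond CSNK1G3, in the last part of the interval. None of the 12 calls was left with a pseudocount of 1 (112 of 254 members at an unadjusted limma p below 0.05). That setting understates the change of low windows further, and the most negative log2FC of any member was then -1.83. A filter at a mean above 3 FPKM removed all 12 by construction (46 of 93 members at an unadjusted limma p below 0.05). edgeR on recovered reads called 12. Of the 11 lower calls, 8 were in windows that would be in the table without A2780 (3.21% of such members, against 0.095% of all such windows). The largest fall, in the second sequence shown, was in chr5:123120900-123121900, 240 kb from CSNK1G3, with 2.74, 4.08 and 2.88 FPKM in A2780 and 0.227, 0.180 and 0.126 FPKM in CP70 (log2FC -3.58, SE 0.32, adjusted p 1.4e-26, 512 and 9 reads). PEO1 and PEO4 averaged 2.79 and 2.09 FPKM there and PEA1 and PEA2 0.318 and 0.371. Its neighbour chr5:123143400-123144400 had 2.53, 3.54 and 2.40 FPKM in A2780 and 0.0758, 0.180 and 0.377 FPKM in CP70, and averaged at most 0.573 FPKM in the other 4 lines. It was in the table through A2780 alone, so its difference carries no test. The single rise, in chr5:92497500-92498500 and 421 kb from NR2F1, went from 0.436, 0.135 and 0.397 FPKM to 3.03, 1.80 and 1.88 FPKM (log2FC 2.52, SE 0.32, adjusted p 3.0e-13). Its log2FC was 1.94 with libraries centred on their median, below the threshold of 2, and 2.14 after GC correction.

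From just beyond CSNK1G3 to the end of the interval, a stretch marked out after its values were seen, all 10 windows tested were called lower in CP70. Testing required a mean above 1 FPKM over the pair. Where CP70 was low, a tested window had to be high in A2780, so nothing is read from that count. Of the 60 windows of the stretch, tested or not, 35 had every CP70 library below every A2780 library. This compares with 103 of 793 before 120 Mb, 5 of 68 in between and 7.19% of all windows of the table. The stretch had a median level of 0.745 FPKM in A2780 and 0.305 in CP70. Its only promoter window, that of the zinc finger gene ZNF608, had 0.976, 1.31 and 0.992 FPKM in A2780 and 0.227, 0.239 and 0.461 FPKM in CP70, too low to be tested. Just before it, CEP120, a centriole gene, and CSNK1G3, a casein kinase gene, were higher in CP70 by log2FC of 1.12 and 1.14. Over tested windows, the median log2FC of CP70 over A2780 was -2.20 in the last bin of 2.5 Mb of the interval. It was 0.01 to 0.88 in the 15 earlier bins and 0.88 in the bin beyond the interval. Over all windows, tested or not, the median was -0.10 before 120 Mb and -0.02 from there to the stretch, against -1.02 in the stretch.

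**Figure D5:**
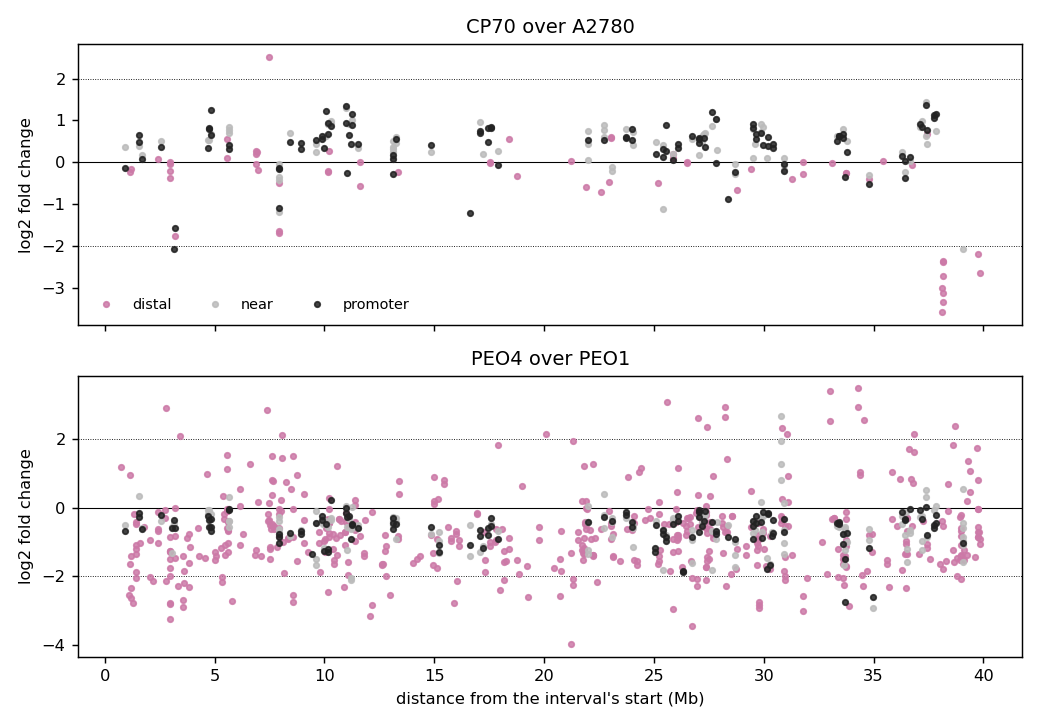
log2FC of CP70 over A2780 (top) and PEO4 over PEO1 (bottom) for promoter, near and distal members tested, against the distance from the start of the interval, with dotted lines at 2 and -2. In the A2780 pair 10 of the 11 called falls gather at the right end; in the PEO pair promoters lie mostly just below 0 and distal windows on both sides.

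The direction of gene promoters in the A2780 pair followed the scaling. At adjusted p below 0.05 (limma), 23 of 77 gene promoters were higher in CP70 (29.9%), against 44.9% of all promoters, and 3 were lower, MEF2C, NR2F1 and SLCO4C1, against 1.39%. The median log2FC of all windows in the pair was 0.59, and with libraries centred on their median 5 were higher (against 5.58%) and 10 lower (against 8.06%). After GC correction 0 were higher (against 2.39% of all promoters) and 7 lower (against 4.69%). MEF2C had 2.20, 2.93 and 2.36 FPKM in A2780 and 0.682, 0.658 and 0.293 FPKM in CP70 (log2FC -2.07, SE 0.27) and was called at the stricter thresholds in 4 of 6 fits that left out 1 library. NR2F1, an orphan nuclear receptor gene, had a log2FC of -1.19 (SE 0.26).

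As a whole, the interval moved far less against its flank in these pairs than the 1.38 of the PEA pair. The offset of CP70 against A2780 was -0.10 (exact two-sided permutation p = 0.4, adjusted 0.48 over 18 comparisons), with 0.05 ± 0.11 in A2780 and -0.05 ± 0.16 in CP70. For promoters of that pair the offset was 0.02 (exact two-sided permutation p = 0.9, adjusted 0.9). For distal members it was -0.56 (exact two-sided permutation p = 0.2, adjusted 0.28). Distal libraries had 0.26 ± 0.21 in A2780 and -0.30 ± 0.32 in CP70, and they overlapped. Against the other autosomes, the distal offset of that pair was -0.74 (exact two-sided permutation p = 0.1, adjusted 0.18). Over all members, the offset of PEO4 against PEO1 was -0.24 (exact two-sided permutation p = 0.1, adjusted 0.18). This p is the smallest that 3 against 3 libraries allow. The libraries had 0.12 ± 0.04 in PEO1 and -0.12 ± 0.05 in PEO4. The promoter offset of the PEO pair was -0.30 and the distal offset -0.16, at the same p. Part of the flank differed in that pair, since the 3 bins that follow 130 Mb had medians of PEO4 over PEO1 between 0.69 and 0.84, against -1.09 to -0.36 in the 16 bins of the interval. The change in the PEO pair minus that in the A2780 pair was called in 70 of 704 members by limma, 24 higher and 46 lower, against 1.84% and 6.28% of all windows. The split turned to 43 higher and 12 lower with median centring (against 4.39% and 1.89%), to 42 and 16 after GC correction (against 3.87% and 2.21%) and to 32 and 29 after quantile normalization (against 2.97% and 3.47%). With the pair's own offset removed, the calls numbered 10 in CP70 against A2780 (0.792% of all windows) and 66 in PEO4 against PEO1 (8.47% of all windows). At |log2FC| above 1 and adjusted p below 0.05 (limma), the counts were 34, 326 and 309 in the A2780 pair, the PEO pair and their difference, against 12.6%, 33.3% and 37.1% of all windows.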

How the data were processed

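ATAC-seq was analysed in 18 libraries of 6 lines. The authors removed duplicates with Picard, aligned reads to hg19 with Bowtie2 (versions not given in the sources used here) and deposited FPKM values, with every window above 2 FPKM in at least 2 libraries. As all windows have 1 length, the deposited values could be read as RPM up to a constant, and whole reads (within 0.01 read) were recovered for 100% of values. Windows with a mean above 1 FPKM in a pair were tested with limma 3.58.1 (R 4.3.3; eBayes with trend, as voom needs counts) on log2(FPKM + 0.1) with Benjamini-Hochberg adjustment. edgeR 4.0.16 on recovered reads called 12, 98 and 76 members in the A2780 pair, the PEO pair and their difference. Python 3.11.15, scipy 1.17.1 and GENCODE release 44 lifted to GRCh37 were also used, and the fits were tested on simulated data. Members and lists were chosen with earlier results of these data known. The listed genes were named, with the 3 promoter and 3 distal windows highest and lowest in the PEA pair without overlap (1 of these is not reported here), the 2 calls largest in each direction in the other pairs, and windows at the bounds. SRFBP1, SNX24, SLCO4C1, the stretch beyond CSNK1G3 and the sequences from the A2780 and PEO pairs were chosen after their values were seen.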

Additional observations from a re-analysis of the deposited data

Results flagged for a closer look

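By the limma test of the difference itself, the change in the PEO pair differed from that in the A2780 pair in 70 of 704 members (9.94%). Among all windows the share was 8.12%, and the split into higher and lower turned with the scaling, as given above. Among the windows named above, the PEO change minus the A2780 change (log2) was 4.202 at chr5:119310300-119311300, 3.52 at chr5:118027800-118028800, 3.20 at chr5:123120900-123121900 and 2.98 at chr5:123143400-123144400. It was -3.68 at chr5:106209000-106210000, -2.87 at chr5:111723300-111724300 and -2.40 at chr5:92497500-92498500. The windows starting at 119310300, 118027800, 111723300 and 123143400 were in the table through 1 line alone, which fixes part of their difference. The cause of these differences was not tested.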

How the results depend on the processing

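Of the 198 recomputed values, 144 kept their direction and side of the threshold or moved by less than the spread of libraries, and no offset changed sign. The split of calls into higher and lower did turn with the scaling in the PEO pair and in the difference of pairs, as given above. A pseudocount of 1 took the called members from 12 to 0 in the A2780 pair (112 of 254 at an unadjusted p below 0.05, and 12 by edgeR), from 84 to 10 in the PEO pair and from 70 to 10 for their difference. A mean above 3 FPKM left 0 (46 of 93 at an unadjusted p below 0.05), 27 and 13, and removes windows by construction. The looser thresholds gave 34, 326 and 309, and GC correction 52 in the PEO pair. Leaving out 1 library gave 10 to 12, 80 to 88 and 61 to 73.

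For PEA2 against PEA1 the offset of all, promoter and distal members was 1.38, 1.33 and 1.48. It was 0.78, 0.96 and 0.69 with a pseudocount of 1, 1.27, 1.44 and 1.33 above 3 FPKM, 1.07, 1.22 and 1.11 after GC correction, and 1.81, 1.75 and 1.67 against the other autosomes. Without the filter on low windows it was 1.13 for all and 1.199 for distal members, with quantile normalization 1.21 and 1.30, and in windows selected in the A2780 and PEO pairs 1.18 and 1.10. The upper depth limit gave 1.15 for promoters and 1.41 for distal members. Distal members gave 1.51 without the 10 Mb next to each end and 1.22 when over 50 kb from a start. Added after seeing the data, the flank without 50 to 85 Mb gave 1.499, 1.5005 and 1.59, and ending the interval at 120 Mb gave 1.56 for all and 1.61 for distal members. Leaving out 1 library gave 1.28 to 1.38, 1.26 to 1.38 and 1.45 to 1.49. It took the A2780 offset to between -0.19 and -0.02 and that of PEO4 against PEO1 to between -0.26 and -0.19.

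With the offset removed, 10 members were called in the A2780 pair, 66 in the PEO pair and, as a description only, 97 in the PEA pair. A pseudocount of 1 gave 0, 6 and 0 (619 of 664 PEA members at an unadjusted p below 0.05 before the offset was removed), a mean above 3 FPKM 0, 20 and 9, and the looser thresholds 45, 290 and 304. Median centring gave 16 in the A2780 pair and 56 in the PEA pair, GC correction 16 and 41, and quantile normalization 52 in the PEA pair. Leaving out 1 library gave 9 to 12, 59 to 70 and 88 to 106. Same-numbered libraries did not deviate together (correlations -0.41 to 0.04, against -0.38 to 0.43 for libraries with different numbers). These values gave no ground to pair samples by number, but cannot show how the libraries were prepared. The fits with a replicate block gave 12, 84 and 70 calls as without it and changed no other call. This is because the fold threshold decides them (every member past it also passed the p threshold). Low reads per distal window in PEA1 and CP70 limit single windows more than medians. Where the cause of a change with a setting is not its construction, it was not tested.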
